A study of Mus musculus with 9 samples.

Results

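The conjunctiva of unchallenged control mice was described from 3 of the 9 messenger RNA libraries of the series. Each library was made from conjunctival tissue combined from 3 mice, and the libraries are called pools 1, 2 and 3 by the replicate number in their labels. They were chosen by their group label alone, and no other group is set against them. The mice were Vegfr3 fl/fl littermates, labelled Ctrl, bred on a C57BL/6J background: they carry the floxed allele of the lymphatic growth factor receptor gene but are the genotype without the Prox1CreERT2 recombinase. Like every mouse of the series they were given tamoxifen (5 intraperitoneal injections of 75 mg/kg at week 5). At week 6 they were immunized with ovalbumin (250 µg), pertussis toxin (0.3 µg) and the adjuvant aluminum hydroxide (5 mg). Their labels name no ovalbumin eye drops. The tissue is therefore that of immunized mice and not of naive ones, and whether it came from saline-treated eyes of challenged animals or from other animals is not given. The sex of the mice is not given either. The spread between pools is a spread between samples of 3 mice each, and where nothing says how the replicate experiments differed it may be partly technical.

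The conjunctiva is a mucous membrane. It lines the inner face of the eyelids and runs from there over the sclera up to the edge of the cornea. Its stratified epithelium rests on a basal layer of keratin 5 and keratin 14 cells, carries membrane-bound mucins at its surface and holds goblet cells that secrete gel-forming mucin into the tear film. Below lies a stroma of fibroblasts with blood and lymphatic vessels, nerves and resident macrophages, dendritic cells, mast cells and lymphocytes. Its neighbours are the cornea, the eyelid with its epidermis, hair follicles, meibomian glands and muscle, the lacrimal glands, the orbital fat and the muscles that move the eye, any of which a dissection can take along.

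The deposited values are counts of reads per gene symbol for 20603 genes. The total was 18025965 counts in pool 1, 24746836 in pool 2 and 19743395 in pool 3. Levels are given in CPM, a gene's count as a share of the library's total count brought to a fixed sum, after scaling with TMM factors (1.057, 1.029 and 0.9195), which adjust the totals for differences in composition. A count of 0 allows a level of up to 3 counts, which is 0.157, 0.118 and 0.165 CPM in the 3 pools. CPM does not correct for gene length, so genes are ranked against each other also in TPM, which starts from counts per kilobase of exon and brings every pool to the same total. Values are printed in the order of pools 1, 2 and 3, and means are given ± SD over these 3 pools. Reads that carry no molecular identifier are not independent molecules, so an interval or floor accounts for counting error and nothing else.

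A count was seen for 19465, 19382 and 18422 genes in the 3 pools, and 259 genes of the table were at 0 in all of them. A level of at least 1 CPM was reached in every pool by 13261 genes. By mean level 9989 genes reached 10 CPM, 2214 reached 100 CPM and 79 reached 1000 CPM. These 79 genes held 20.6% of all counts and the 2214 held 67.8%. The 50 most abundant genes took 17.2%, 16.6% and 18.0% of the counts, 17.3% ± 0.711 on average (SD, n = 3), and the 95% Wilson interval of the share in pool 1 was 17.17% to 17.21%. The share of the 50 most abundant genes was thus close in the 3 pools, although pool 3 had counts in fewer genes than the shallower pool 1. With mitochondrial genes left out it was less even, at 16.01% ± 1.63 (SD, n = 3).

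The single most abundant gene was Gsto1, which encodes glutathione S-transferase omega 1, a thiol transferase that reduces dehydroascorbate and methylated arsenic. Its level was 19469.7, 17472 and 30145 CPM, with a mean of 22362 ± 6814 CPM (SD, n = 3), and it held the first place in each pool and also in TPM (45366 ± 9909.9 TPM). Among nuclear genes that encode no ribosomal protein it was followed by the basal keratins. Krt15, a keratin of basal and progenitor-rich epithelium, was at 8741, 9902 and 16829.8 CPM. Krt5, the partner keratin of the basal layer, was at 6914, 9180.1 and 13717 CPM. Both keratins were lowest in pool 1 and highest in pool 3. Gsto1 was also highest in pool 3 and was lowest in pool 2, as the plot of the 30 most abundant genes shows.

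**Figure D1:**
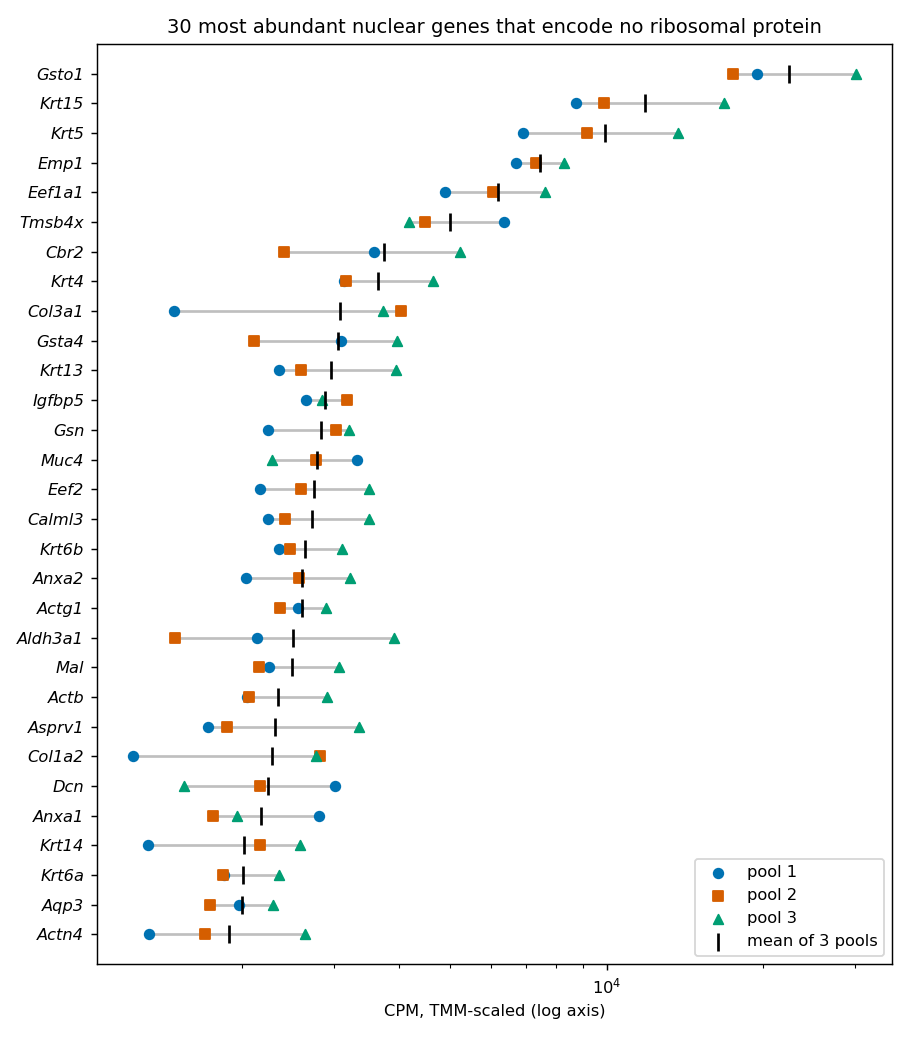
The 30 nuclear genes with the highest mean level, leaving out those of ribosomal proteins. The x axis is the TMM-scaled CPM on a log scale, the symbols are the 3 pools and the vertical tick is their mean. Gsto1 lies apart on the right, the keratins Krt15 and Krt5 follow, and Col3a1 and Col1a2 have the lowest value in pool 1.

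Next in the CPM ranking came Emp1, an epithelial membrane protein of the tetraspan family, at 6704, 7333 and 8285 CPM. Its coefficient of variation (CV, SD over mean) of 10.7% was among the smaller ones of the abundant genes. Eef1a1, an elongation factor of translation, was at 4903, 6053 and 7606 CPM, and Tmsb4x, which encodes the actin-binding thymosin beta 4, at 6365, 4479.7 and 4174 CPM. Cbr2, a carbonyl reductase, was at 3570.3, 2406 and 5222 CPM and Gsta4, a glutathione transferase that acts on lipid peroxidation products, at 3087, 2109 and 3952 CPM. Both of these enzymes were lowest in pool 2 and highest in pool 3. Krt4 (3132, 3159.8 and 4634 CPM) and Krt13 (2348, 2596 and 3935 CPM), the keratin pair of moist stratified epithelia, stood at places 10 and 13 of all genes.

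Corrected for length, 22 of these 30 genes remained among the 30 most abundant. Long transcripts lost places: the fibrillar collagen gene Col3a1 went from place 11 in CPM to 87 in TPM, Col1a2 from 28 to 110, the growth factor binding protein gene Igfbp5 from 14 to 98 and the mucin gene Muc4 from 16 to 200. Short transcripts gained: Pglyrp1, which encodes a secreted protein that binds bacterial peptidoglycan, was at 5451 ± 1005 TPM and moved from place 46 to 13. S100a6 (5300.1 ± 1243 TPM) and S100a11 (4962 ± 616 TPM), small calcium-binding proteins of epithelial cells, moved from 39 to 14 and from 75 to 15. Ifitm1, an interferon-inducible membrane protein, moved from 51 to 29 (3048 ± 693 TPM). The length-corrected head of the list was therefore made up of detoxification enzymes, keratins, cytoskeletal and calcium-binding proteins and a secreted antibacterial protein, with the collagens lower down.

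The 13 protein-coding genes of the mitochondrial genome took 3.70%, 2.79% and 1.16% of the counts, a range of 3.18-fold. The most abundant of them was mt-Co1, a subunit of cytochrome oxidase, at 15616, 14698 and 5227 CPM. The genes mt-Co2, mt-Atp6 and mt-Co3 of the same genome were at only 94.8, 56.9 and 47.1 CPM, 96.1, 29.8 and 27.2 CPM and 77.1, 42.2 and 25.2 CPM. Near-identical copies of part of the mitochondrial genome lie in nuclear DNA, and where counting could split or drop such reads these levels are uncertain. The 84 ribosomal protein genes took 4.56%, 3.90% and 3.88%. The 41 keratin genes took 3.13%, 3.64% and 4.86%, highest in pool 3, and the 42 collagen genes took 0.581%, 1.33% and 1.12%, lowest in pool 1. Mitochondrial and keratin shares thus ran in opposite orders over the pools.

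Surface epithelium was represented by a list of 15 genes, all of them above 10 CPM, with a summed level of 14763, 15734 and 21958 CPM. In a bulk sample a lower sum can mean fewer cells of a type or less RNA per cell, and these cannot be told apart. Besides Krt4 and Krt13 the list held Krt6b (2349, 2463 and 3104 CPM), Krt6a (1844, 1833 and 2346 CPM) and Krt19 (1188, 1732 and 2374 CPM), keratins of mucosal and ductal epithelia. Pax6, the transcription factor of eye development that conjunctival epithelium retains, was at 349.6, 348 and 458 CPM. Elf3, an epithelial transcription factor, was at 704, 812 and 929.8 CPM, and Cdh1, which encodes E-cadherin, at 569.5, 644 and 704 CPM. All 15 members were highest in pool 3, against 38.2% of the 14187 genes with a mean of at least 1 CPM. Without a scaling factor 12 of the 15 were, against 23.6% of those genes.

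The basal epithelium list of 12 genes summed to 19527, 23982 and 36704 CPM, of which Krt15 alone made up 44.2%. Krt14, the type I partner of Krt5, was at 1320.2, 2158 and 2574 CPM. Col17a1, a hemidesmosome collagen that anchors basal cells, was at 552, 595 and 969 CPM, and Trp63, the transcription factor that maintains stratified epithelium, at 210.3, 272 and 285 CPM. Of the 12 members 9 were highest in pool 3, against 38.2% of all genes, and 9 were lowest in pool 1, where 42.6% of all genes at 1 CPM or more had their lowest value. Without Krt15 and Krt5 the sum was 3872, 4900.3 and 6158 CPM, in the same order of pools. The order of the keratins themselves in TPM was Krt15 (16622 ± 4697 TPM), Krt5 (10831 ± 2924 TPM), Krt13 (4295 ± 870.2 TPM), Krt4 (4108 ± 614 TPM) and Krt14 (2859 ± 766 TPM). Krt15 lay above Krt5 and Krt4 above Krt14 in every pool, in the mean by less than the SDs of the pair added together. Krt13 was below Krt4 in pool 1 and above it in the others, and Krt5 lay above Krt13 by more than both SDs. Krt13 and Krt4 exchanged places between CPM and TPM.

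Keratins of dry skin were low. Krt1 and Krt10, the pair of suprabasal epidermis, were at 7.72, 8.48 and 9.58 CPM and 6.98, 6.36 and 7.82 CPM, and Lor, which encodes the epidermal envelope protein loricrin, at 0.210, 0.275 and 0.606 CPM. In TPM, Krt10 was at 8.09 ± 0.379 TPM and Krt13 at 4295 ± 870.2 TPM. The eyelid epidermis list of 15 nevertheless summed to 4006, 4338 and 6915 CPM. Calml3 (2240.03, 2419 and 3506 CPM), a calmodulin-like protein of stratified epithelia, and Asprv1 (1717, 1865 and 3351 CPM), an aspartic protease known from skin, made up almost all of it. Without them the remaining 9 members summed to 48.2, 54.1 and 57.8 CPM. Krt2, Flg, Flg2 and Hrnr of this list have no row in the table used here, so they were not analysed. The sum therefore rests on 2 genes, while the defining epidermal keratins lie below 10 CPM in every pool.

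Genes of the cornified envelope, the protein shell of terminally differentiating squamous cells, were mostly those of its scaffold. Ppl (periplakin) was at 993, 1109 and 1417 CPM and Evpl (envoplakin) at 850, 1054 and 1559 CPM, and Scel (sciellin) at 558, 500.2 and 666 CPM. Tgm1, the transglutaminase that cross-links the envelope, was at 42.00, 65.3 and 97.3 CPM. The small proline-rich genes with a row were low: Sprr1a was at 13.6, 47.7 and 17.9 CPM, Sprr2a1 at 1.78, 6.36 and 1.60 CPM and Sprr1b at 0 in all pools. Sprr3 of the same family has no row, nor has Klk7 of this list, so they were not analysed. Sprr2 genes are near-identical copies, so their single values are uncertain. Of 19 entries 17 had a row, and these summed to 3072, 3467 and 4666 CPM.

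Hair follicle genes were close to the floor. Of 18 entries 11 had a row, and only Tchh (trichohyalin of the inner root sheath) reached 1 CPM, at 6.04, 8.48 and 8.70 CPM. The hair keratin Krt33b was at 0.945, 0.157 and 0.936 CPM and Krt35 was at 0. The cornea list summed to 2521, 1899 and 4569 CPM, but 83.6% of it was Aldh3a1, an aldehyde dehydrogenase that mouse corneal epithelium makes in bulk, at 2130.3, 1483 and 3901 CPM. Tkt, a transketolase that every cell uses, was at 358, 360.4 and 603 CPM. Krt12, the keratin that defines corneal epithelium, was at 3.99, 2.71 and 7.55 CPM and Kera, which encodes the stromal proteoglycan keratocan, at 7.40, 15.1 and 13.6 CPM. Aldh3a1 had a CV of 49.98% and Krt12 one of 52.8%, and both were lowest in pool 2 and highest in pool 3. The part of corneal tissue in the Aldh3a1 level was not tested.

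Goblet cell genes had one of the largest spreads. Muc5ac, the gel-forming mucin of conjunctival goblet cells, was at 530.3, 78.5 and 153 CPM, 6.76-fold apart between pools 1 and 2. Its mean of 254 ± 242 CPM (SD, n = 3) rests largely on pool 1. Muc5b, the other gel-forming mucin, was at 44.6, 9.46 and 29.2 CPM, and Spdef, the transcription factor that goblet cells need to mature, at 7.35, 1.30 and 5.62 CPM. All of these genes had the same order of pools, 1, 3 and 2. Galnt6, an enzyme that starts mucin O-glycans, followed the same order at 7.61, 2.43 and 5.07 CPM.

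Other goblet cell genes did not share this order. Agr2, a disulfide isomerase of mucin folding, was at 83.3, 64.5 and 59.5 CPM, Fcgbp, a mucus-associated protein, at 83.3, 54.2 and 113 CPM and Creb3l1, a transcription factor of secretory cells, at 16.3, 45.5 and 27.3 CPM. Of the 8 members above 1 CPM 5 were highest in pool 1, against 34.0% of all genes at that level. The list summed to 808, 282 and 429.7 CPM with Muc5ac and to 277, 204 and 277 CPM without it. Tff2, a trefoil peptide, was at 0 in all pools, and Tff1 had a single pool with counts (0.0525, 0 and 0 CPM).

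Membrane-bound mucins form the glycocalyx of the surface cells, and apart from Muc16 their levels were closer between pools than Muc5ac was. Muc4 was at 3312, 2774 and 2274 CPM and made up 59.1% of the list. Muc1 was at 322, 377 and 439 CPM, Muc21 at 378, 418 and 279 CPM and Muc20 at 282, 266 and 292 CPM. Muc16, a large mucin of the apical surface, was at 10.7, 1.61 and 3.08 CPM, so that its highest pool was again pool 1. The summed level was 5124, 4594 and 4438 CPM, a CV of 7.62% against 53.5% for the goblet cell list. These CVs are of sums. Muc4 fell from pool 1 to pool 3, while Lgals3, a galectin on this list, was highest in pool 3 (472, 469 and 724 CPM), which partly offset it. Without Muc5ac the goblet cell sum was 253 ± 42.3 CPM (SD, n = 3). The median CV of single members above 1 CPM was 19.99% for the membrane mucin list and 50.51% for the goblet cell list, a smaller contrast. Per length Muc4 (607 ± 151 TPM) was above Muc5ac (58.5 ± 58.3 TPM) in every pool.

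Secreted defence proteins of the tear film were led by Pglyrp1, at 1740.3, 1194 and 1751 CPM. The complement component C3 was at 656, 670.3 and 274 CPM, Ltf, which encodes the iron-binding lactoferrin, at 211, 226 and 190.3 CPM and Lcn2, the siderophore-binding lipocalin, at 106, 104 and 58.2 CPM. Lyz2, the lysozyme of macrophages and many epithelia, was at 526, 370.5 and 217 CPM. C3 was lower in pool 3 than in the other pools, while Ltf differed little. Reg3g, an antibacterial lectin that epithelia induce, had the largest CV of all genes at 10 CPM or more (153%) because pool 1 stood at 34.9 CPM and pools 2 and 3 at 0.668 and 2.26 CPM. Bpifa1 was at 0. Of 23 entries 22 had a row, Scgb1a1 having none, and these summed to 4176, 3285 and 3377 CPM.

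Enzymes of detoxification and antioxidant defence formed the list with the largest share of reads, 3.07%, 2.53% and 3.97%, of which Gsto1 made up 69.3%. Behind Gsto1, Gsta4 and Aldh3a1 stood Adh7, an alcohol dehydrogenase that oxidizes retinol, at 1362, 827 and 1354 CPM and Cyp2f2, a cytochrome P450, at 1106, 757 and 1293 CPM. Prdx1 and Prdx6, peroxiredoxins that remove peroxides, were at 453, 387 and 347 CPM and 267, 218 and 433 CPM. Of the 20 members 16 were highest in pool 3, against 38.2% of all genes at 1 CPM or more. Without a scaling factor 11 were, against 23.6%. Prdx1 and Gpx4, a peroxidase of lipid peroxides (168, 164 and 130.4 CPM), were lowest there. Without Gsto1 the summed level was 9616, 7133 and 12995 CPM, so the order of pools did not hinge on that gene.

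The water and ion transport list was led by Aqp3, a channel for water and glycerol, at 1972, 1733 and 2293 CPM. Slc12a2, a chloride cotransporter of secreting epithelia, was at 456, 309 and 487 CPM. Aqp5, a water channel of tear-secreting tissue and cornea, was at 139, 128 and 156 CPM, Aqp1, found in vessels and stromal cells, at 86.98, 111 and 67.6 CPM and Aqp4 at 59.3, 29.8 and 23.1 CPM. In TPM the aquaporins stood in the order Aqp3 (2741 ± 209 TPM), Aqp5 (190.2 ± 7.77 TPM), Aqp1 (83.00 ± 25.3 TPM) and Aqp4 (15.7 ± 8.77 TPM). Each of these 4 lay above the next by more than both SDs. Of the sodium channel subunits Scnn1a was at 31.6, 24.7 and 30.1 CPM, while Scnn1b and Scnn1g were at or under the floor.

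The stromal fibroblast list of 16 genes summed to 12216, 19906 and 18539.9 CPM. The fibrillar collagens were lowest in pool 1: Col3a1 was at 1479.9, 4025 and 3724 CPM, Col1a2 at 1234, 2818 and 2773 CPM and Col1a1 at 589.5, 2443 and 2115 CPM. Sparc, a matrix protein that binds collagen, was at 503, 1153 and 1288 CPM. Dcn, which encodes the collagen-binding proteoglycan decorin, ran the other way at 3008, 2165 and 1546 CPM, and so did Lum, which encodes lumican, at 303, 244 and 215 CPM. The fibroblast receptor gene Pdgfra was at 157, 192 and 123 CPM and Pi16, a marker of adventitial fibroblasts, at 579.6, 996 and 1089 CPM. The list was therefore not uniform: 12 of 16 members were lowest in pool 1, against 42.6% of all genes, while 2 were highest there.

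Mural cells of vessels were seen through Notch3, a receptor of pericytes and smooth muscle, at 140.4, 169.6 and 229 CPM, and Pdgfrb at 42.1, 71.8 and 49.6 CPM. Rgs5, a regulator of G protein signalling in pericytes, was at 34.02, 85.4 and 27.2 CPM and Acta2, smooth muscle actin, at 12.7, 21.4 and 10.6 CPM. Notch3 is also used by epithelium, and Des (76.2, 275 and 171 CPM), which encodes desmin, is also a gene of skeletal muscle. Schwann cell and nerve genes were led by Mbp (215, 246 and 352 CPM), Erbb3 (220.5, 204 and 295 CPM) and Scn7a (135, 126 and 82.5 CPM). Sox10, the transcription factor that defines Schwann cells, was low, at 0.210, 1.81 and 1.32 CPM. The sums of the lists were 423, 766 and 595 CPM for mural cells and 603, 604 and 758 CPM for Schwann cells and nerve, and for nerve they rest on 3 genes that other cells share.

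Pigment cell genes were near the floor. Dct was at 0.262, 1.37 and 0.0551 CPM, Tyr at 0.0525, 0.236 and 0 CPM and Mlana at 0.367, 0.118 and 0.0551 CPM, whereas Pmel, a melanosome protein, was at 4.15, 3.97 and 4.52 CPM. Gpnmb (33.8, 18.7 and 17.6 CPM), which macrophages express as well, and Mitf (10.4, 11.9 and 7.77 CPM) made up most of the sum of 50.2, 37.5 and 30.2 CPM.

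Blood endothelium was measured with 16 genes, of which 14 reached 1 CPM. Kdr, the receptor for VEGF-A, was at 66.7, 66.5 and 70.4 CPM and was one of the steadiest marker genes, with a CV of 3.23%. Tek, the angiopoietin receptor, was at 60.2, 69.6 and 51.7 CPM and Eng (endoglin) at 50.7, 82.5 and 47.8 CPM. Vwf, the clotting factor carrier of venous endothelium, was at 19.7, 45.6 and 10.3 CPM and Cdh5, which encodes VE-cadherin, at 14.7, 34.2 and 14.7 CPM. Of the 14 genes 12 were highest in pool 2, against 27.8% of all genes. Their summed level was 337, 499 and 324 CPM. Sele (0.315, 1.61 and 0.220 CPM) and Selp (0.525, 1.65 and 0.386 CPM), selectins of activated endothelium, lay near 1 CPM or under it.

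Lymphatic endothelium is the cell type that the gene deletion of the series is aimed at, and these controls are by genotype without it. Flt4, which encodes Vegfr3, was at 18.5, 27.4 and 14.2 CPM (20.04 ± 6.77 CPM on average, SD, n = 3), place 7884 of all genes. Prox1, the transcription factor of lymphatic identity, was at 12.8, 8.09 and 9.25 CPM. Lyve1, a hyaluronan receptor that macrophages also carry, was at 110.1, 114 and 77.9 CPM and Ccl21a, the chemokine that guides dendritic cells into lymphatics, at 104, 80.2 and 42.5 CPM. Ccl21a has near-identical copies in the mouse genome, so its value is uncertain. Mmrn1, an extracellular protein of lymphatic vessels, was at 84.9, 73.7 and 51.7 CPM and Reln (reelin) at 48.9, 44.1 and 31.01 CPM.

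Flt4 was highest in pool 2, as were most blood endothelial genes, while Prox1 was highest in pool 1. The 12 lymphatic genes above 1 CPM were highest in pool 1 in 5 cases, in pool 2 in 5 and in pool 3 in 2, against 34.0%, 27.8% and 38.2% of all genes. Pdpn (133, 159 and 192 CPM), which is also a gene of basal epithelium and fibroblasts, was one of those highest in pool 3. In TPM the vascular receptors stood in the order Tek (31.6 ± 6.72 TPM), Kdr (27.9 ± 1.31 TPM), Flt1 (9.57 ± 1.83 TPM) and Flt4 (7.91 ± 3.10 TPM). Tek and Kdr did not differ beyond their SDs, nor did Flt1, a receptor that binds VEGF-A, and Flt4, although Flt1 was the higher of the pair in every pool.

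Among the ligands Vegfa was at 56.01, 53.9 and 34.7 CPM, Vegfb at 26.6, 45.7 and 36.4 CPM, Vegfd at 31.6, 16.6 and 13.00 CPM and Vegfc at 4.99, 12.3 and 7.38 CPM. Vegfc and Vegfd are the ligands of Vegfr3. They ran in different orders, Vegfd highest in pool 1 and Vegfc highest in pool 2. The lymphatic list summed to 744, 693 and 554 CPM and the VEGF and angiopoietin list to 383, 442 and 329 CPM.

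**Figure D2:**
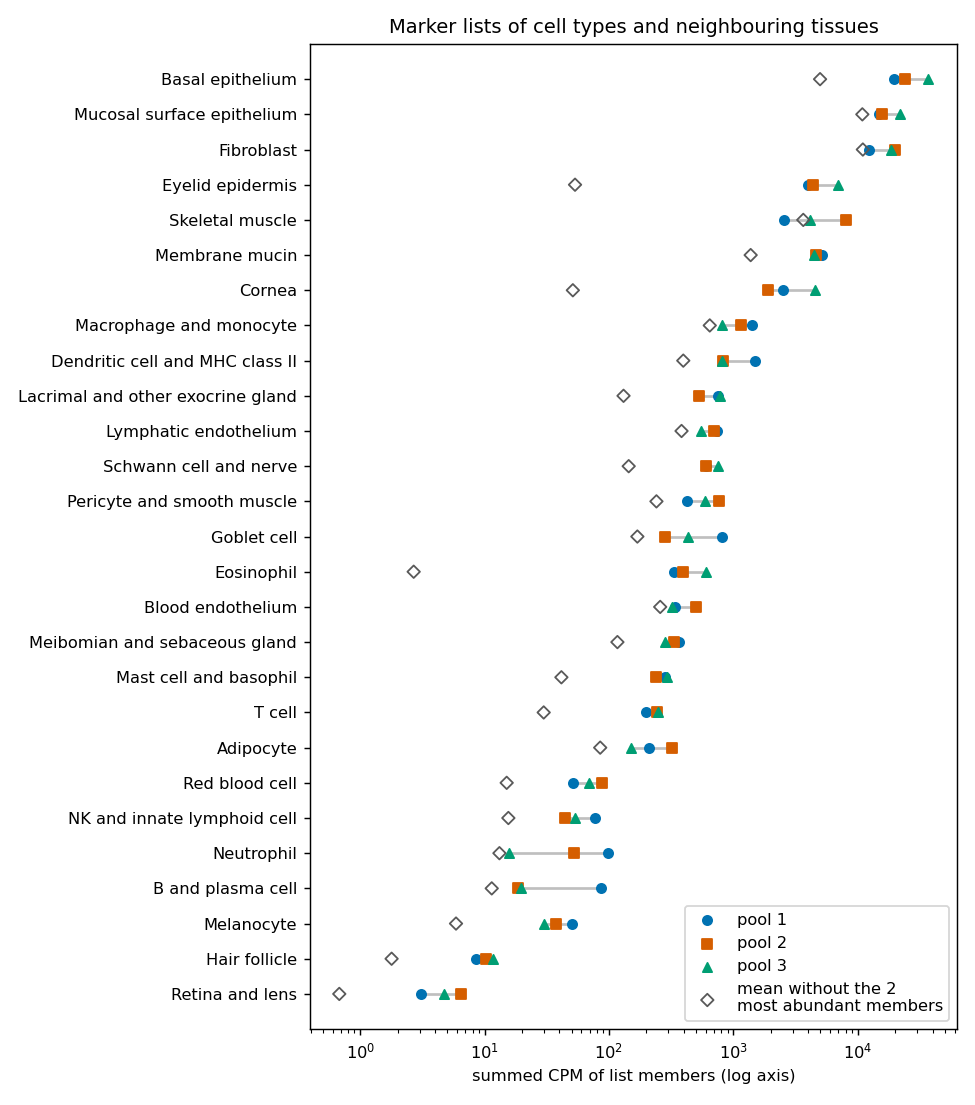
Summed TMM-scaled CPM of the marker lists of cell types and neighbouring tissues in each pool, on a log axis, with the open diamond showing the mean without the 2 most abundant members. Lists differ in the number and length of their genes, so their order does not rank cell types. The cornea, eyelid epidermis and eosinophil sums drop steeply without 2 genes, while the fibroblast and skeletal muscle sums do not.

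Genes of resident macrophages were seen in all 3 pools. Csf1r, the receptor that macrophages need to survive, was at 126, 109 and 79.9 CPM. Mrc1 (the mannose receptor) and Cd163, a haemoglobin scavenger receptor, both typical of tissue-resident macrophages, were at 140.4, 115 and 64.9 CPM and 110.2, 108 and 66.04 CPM. The complement genes C1qa, C1qb and C1qc were at 71.9, 80.8 and 87.03 CPM, 116, 94.6 and 76.3 CPM and 80.6, 74.9 and 69.9 CPM. Ccr2, the chemokine receptor of recruited monocytes, was at 61.4, 17.7 and 14.5 CPM, so pool 1 stood well above the others. The list summed to 1413, 1155 and 803 CPM, of which Lyz2, also a gene of many epithelia, made up 33.0%. Without Lyz2 the sum was 888, 784 and 587 CPM. Of the 16 members above 1 CPM 12 were highest in pool 1, against 34.0% of all genes. Pools 2 and 3 were closer to each other in Ccr2 than in Csf1r or Mrc1.

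Antigen presentation genes were also highest in pool 1. Cd74, which guides MHC class II molecules through the cell, was at 607, 400.4 and 381 CPM, and the class II chains H2-Aa, H2-Ab1 and H2-Eb1 were at 315, 126 and 118 CPM, 233, 118 and 136 CPM and 240.4, 116 and 123 CPM. Ciita, the master regulator of class II genes, was at 17.3, 3.97 and 4.74 CPM. Of 12 members above 1 CPM 11 were highest in pool 1, against 34.0% of all genes. Genes of dendritic cell subsets were low in all pools: Itgax was at 12.4, 4.67 and 4.57 CPM, Clec9a at 1.68, 0.864 and 0.551 CPM, Xcr1 at 0.525, 0.510 and 0.441 CPM and Cd207, the marker of Langerhans cells, at 0.0525, 0.236 and 0.220 CPM. The sum was 1497, 823 and 815 CPM and without Cd74 it was 889.6, 423 and 434 CPM.

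T cell genes were present at low levels. Cd3e, part of the CD3 signalling complex, was at 4.72, 2.63 and 4.13 CPM, Cd8a at 3.31, 2.32 and 2.70 CPM and Cd4 at 1.99, 2.32 and 2.20 CPM. Trdc, the constant region of the gamma delta receptor, was at 9.66, 5.85 and 5.62 CPM, and Foxp3 of regulatory T cells was at 0.892, 0.471 and 0.441 CPM. Thy1, which fibroblasts also express, made up 84.0% of the summed level. Without it the sum was 48.9, 26.5 and 35.4 CPM, highest in pool 1, whereas with it pool 1 was lowest (199.9, 243 and 249 CPM). Of the 15 members above 1 CPM 11 were highest in pool 1, against 34.0% of all genes.

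Among killer and innate lymphoid cell genes Rora (45.6, 30.1 and 40.8 CPM) made up 66.7% of the sum, and the receptor gene Klrk1 was at 4.67, 0.785 and 0.826 CPM and the protease gene Gzma at 4.51, 1.41 and 1.38 CPM. Ncr1, which defines natural killer cells, was at 0.840, 0.0393 and 0 CPM. All 8 members above 1 CPM were highest in pool 1, against 34.0% of all genes. Without Rora the sum was 31.4, 14.3 and 12.3 CPM.

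B and plasma cell genes were concentrated in pool 1. Ighm, which encodes the heavy chain of IgM, was at 47.4, 13.5 and 9.09 CPM, Igkc, the kappa light chain, at 18.7, 0.157 and 0.936 CPM and Jchain, which joins IgM and IgA into polymers, at 5.25, 0.0785 and 0.496 CPM. Cd79a, Pax5 and Ms4a1, which define B cells, had counts in pool 1 only, where they were at 0.420, 0.367 and 0.262 CPM. Ighg1 was at 0 in all pools, at the floors given above. The list summed to 85.8, 18.5 and 19.8 CPM, with a mean of 41.4 ± 38.5 CPM (SD, n = 3) that was 19.2 CPM without pool 1. Immunoglobulin segments share sequence, so the split between them is uncertain.

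Mast cell genes were seen in all 3 pools, with a median CV of 21.3% over the 8 members above 1 CPM. Mcpt4, a chymase of connective tissue mast cells, was at 10.6, 11.2 and 10.4 CPM, Tpsb2, a tryptase, at 10.5, 9.97 and 12.5 CPM, Cma1 at 8.45, 6.71 and 7.27 CPM and Cpa3 at 10.5, 7.23 and 4.68 CPM. Mcpt4 had a CV of 3.59%, smaller than its counting error of 6.67%, whereas Cpa3 fell from pool 1 to pool 3. The sum of 281, 237 and 292 CPM was dominated by Kit (149, 146 and 191 CPM) and Hpgds (86.5, 50.9 and 63.2 CPM), which other cells use too, and without them it was 46.4, 40.2 and 37.7 CPM.

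Eosinophil and neutrophil genes differed in what carried them. Alox15, a lipoxygenase that epithelium and macrophages also express, made up 98.3% of the eosinophil sum at 320.4, 386 and 601 CPM. The receptor genes Ccr3 and Siglecf were at 2.31, 0.942 and 0.386 CPM and 0.997, 1.06 and 0.551 CPM, and Epx, Prg2, Ear1 and Ear6 have no row in the table used here. Without Alox15 the sum was 12.9, 5.62 and 3.86 CPM. Neutrophil genes summed to 98.8, 51.95 and 15.9 CPM: S100a9 was at 55.5, 34.04 and 9.58 CPM, S100a8 at 17.3, 7.74 and 0.716 CPM and Cxcr2 at 6.72, 1.96 and 0.606 CPM. All 4 members above 1 CPM were highest in pool 1 and lowest in pool 3, each of which holds for 34.0% of all genes. Without pool 1 the mean sum was 33.9 CPM in place of 55.6.

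Cytokines that start or carry a type 2 response were mostly low in these immunized mice. Il33, an alarmin stored in the nuclei of epithelial and stromal cells, was the exception at 151, 153 and 149 CPM, with a CV of 1.35% that is below its counting error of 1.78%. Tslp, another alarmin, was at 5.56, 2.16 and 3.75 CPM. Il4 was at 0.892, 0.942 and 0.551 CPM, Il5 at 0.577, 0.196 and 0 CPM and Il13 at 0, 0 and 0.220 CPM, all under 1 CPM. The receptor chains Il4ra (24.8, 35.97 and 28.6 CPM) and Il13ra1 (109, 108 and 122 CPM) and the eotaxin gene Ccl11 (67.04, 62.98 and 46.4 CPM) were above 10 CPM in every pool. Arg1 (192, 79.2 and 129 CPM) and Retnla (181, 56.9 and 59.2 CPM), genes of alternatively activated macrophages, were highest in pool 1. The list summed to 1642, 1409 and 1287 CPM, of which Postn (884, 886 and 727 CPM), a matrix gene also in the fibroblast list, made up 57.6%.

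Interferon-stimulated genes were lowest in pool 2 in 11 of 13 cases, against 23.4% of all genes. Ifitm3 was at 249, 262 and 296 CPM, Gbp2, an interferon-induced GTPase, at 174, 74.2 and 129 CPM, Irf7 at 54.96, 39.1 and 72.4 CPM and Ifit1 at 68.03, 15.6 and 31.9 CPM. The chemokine genes Cxcl9 and Cxcl10 were at 6.51, 1.10 and 3.36 CPM and 1.10, 0.432 and 1.65 CPM. The sum was 730.1, 498 and 685 CPM. Pool 1 was highest in 9 of the 13 genes, against 34.0% of all genes.

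Skeletal muscle was the neighbouring tissue with the largest part of its list above 10 CPM. All 24 members with a row were above 10 CPM in the mean, and their sum was 2573, 8063 and 4153 CPM, which is 0.272%, 0.830% and 0.382% of the counts (95% Wilson interval in pool 2, 0.826% to 0.833%). All 24 were highest in pool 2, against 27.8% of all genes at 1 CPM or more. Without a scaling factor or with DESeq2 size factors 23 of 24 were, against 34.8% and 25.2% of all genes. The ratio between the highest and the lowest pool ran from 1.83 for Neb (nebulin) to 14.2 for Myh4, a fast myosin heavy chain. The mean share of muscle counts was 0.495% ± 0.295 (SD, n = 3), and 0.327% without pool 2.

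Calcium handling and contraction genes led the list. Atp2a1, the calcium pump of fast fibres, was at 314, 1226 and 559.97 CPM and Acta1, skeletal muscle actin, at 274, 932 and 545 CPM. The myosin heavy chain genes were at 215, 599 and 342 CPM for Myh2, 75.5, 418 and 229 CPM for Myh1 and 34.9, 495 and 153 CPM for Myh4. The ratio of Myh4 to Myh2 thus differed between pools, with Myh4 far below Myh2 in pool 1 and closer to it in pool 2. Myh13, a myosin known from the muscles that move the eye, was at 8.19, 26.6 and 4.52 CPM and Myh8, the perinatal myosin, at 31.8, 70.2 and 42.6 CPM. In TPM the order was Myh2 (155 ± 84.7 TPM), Myh1 (96.6 ± 72.6 TPM), Myh4 (93.5 ± 103 TPM) and Myh13 (5.38 ± 5.03 TPM), and the SDs of the first 3 overlap.

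The promoters of the muscle genes were searched for CAGCTG, a sequence of the E-box kind that muscle transcription factors bind. They were also searched for TATAAA, the TATA box. Windows ran from 250 bases before to 50 after each RefSeq start (GRCm38.p6), and both strands were searched. CAGCTG reads the same on both strands, and the motifs do not overlap each other. Of the 24 genes 16 matched by symbol, with 19 windows. CAGCTG was in 57.9% of them, against 16.3% of all 32851 windows and 15.3% of the windows of genes at 10 CPM or more. TATAAA was in 31.6% (6 of 19 windows), against 13.6% and 7.28%. In the 57 windows of genes at 1000 CPM or more, CAGCTG was in 22.8% and TATAAA in 24.6%. The TATAAA share of the muscle genes was thus closer to that of other abundant genes. Some genes have several windows, and windows of Mb overlap each other. A match is a run of letters and not a measured binding site. Why the muscle genes differed between pools was not tested, and a motif count does not address it. The windows of Acta1 (chr8:123894726-123895025, minus strand) and Myh4 (chr11:67237562-67237861, plus strand) are shown because Acta1 is the second most abundant gene of the muscle list in CPM and Myh4 the one that differed most between pools. Both of these windows hold both motifs, which most windows of the list do not. The window of Atp2a1 holds CAGCTG only, those of Myh1, Myh2 and Myh8 hold TATAAA only and that of Myh13 holds neither. Capitals mark the searched motifs on either strand.
Acta1: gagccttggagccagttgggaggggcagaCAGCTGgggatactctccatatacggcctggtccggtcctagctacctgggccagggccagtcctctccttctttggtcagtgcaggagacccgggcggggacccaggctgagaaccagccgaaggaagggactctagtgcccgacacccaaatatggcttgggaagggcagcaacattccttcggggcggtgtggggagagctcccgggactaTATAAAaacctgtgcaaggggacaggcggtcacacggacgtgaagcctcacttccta
Myh4: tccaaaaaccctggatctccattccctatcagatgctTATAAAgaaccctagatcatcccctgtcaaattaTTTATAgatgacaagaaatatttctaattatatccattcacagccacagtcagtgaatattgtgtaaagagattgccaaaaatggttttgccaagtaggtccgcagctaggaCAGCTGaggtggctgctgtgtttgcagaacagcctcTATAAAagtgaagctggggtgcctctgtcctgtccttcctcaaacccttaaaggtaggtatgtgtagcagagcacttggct

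**Figure D3:**
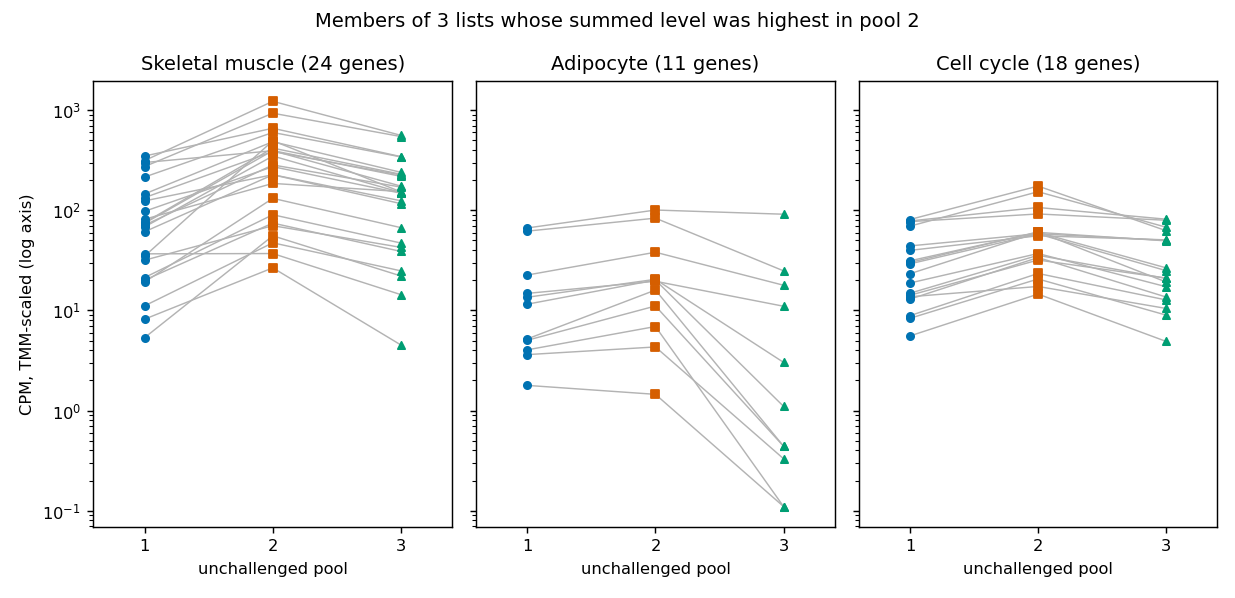
Level of each member above 1 CPM of the skeletal muscle, adipocyte and cell cycle lists in the 3 pools, as TMM-scaled CPM on a log axis, with a line joining the values of a gene. All 24 muscle and 18 cell cycle genes peak in pool 2, and 10 of 11 adipocyte genes do so, with a steep drop in pool 3.

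Adipocyte genes were highest in pool 2 in 10 of 11 cases and lowest in pool 3 in 10, against 27.8% and 34.0% of all genes. Adipoq, which encodes the fat hormone adiponectin, was at 3.62, 4.32 and 0.330 CPM, Plin1, the lipid droplet coat, at 4.04, 6.91 and 0.110 CPM and Cfd (adipsin) at 11.5, 20.1 and 1.10 CPM. Fabp4, a fatty acid carrier of fat and endothelium, was at 13.5, 20.5 and 3.03 CPM. Pnpla2 (66.6, 101 and 91.4 CPM) and Lpl (61.9, 83.5 and 24.8 CPM), lipases that other tissues also use, made up most of the sum of 211, 322 and 151 CPM. In pool 3 Plin1 lay under the floor of 0.165 CPM and Adipoq little above it, while Pnpla2 was near its level in pool 2.

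Gland genes were of mixed character. The meibomian and sebaceous list summed to 367, 331 and 283 CPM, led by the desaturase gene Scd1 (134, 137 and 62.5 CPM) and the transferase gene Mgst1 (114, 85.5 and 97.4 CPM), which many cells use. Defining members were near the floor, with Awat2, a wax synthase of meibomian glands, at 0.420, 0.432 and 0.441 CPM and Elovl3, an elongase of sebum, at 0, 0.118 and 0 CPM. Awat1, Dgat2l6 and Hsd3b6 of this list have no row, so they were not analysed. In the lacrimal and exocrine list Slc12a2, Aqp5 and Pigr (147, 84.1 and 123 CPM), the receptor that carries IgA across epithelium, made up nearly all of 756, 532 and 779 CPM. The acinar genes with a row were low: Lpo, a peroxidase of tears, was at 1.94, 4.36 and 4.35 CPM, Amy1 at 8.19, 5.97 and 4.52 CPM, Bhlha15 at 0.787, 0.982 and 1.27 CPM and Klk1 at 0. Car6, Prol1, Obp1a and Lcn11 of this list have no row, so they were not analysed. Retina and lens genes summed to 3.10, 6.48 and 4.74 CPM, of which Bfsp1 made up 80.5%, while Prph2, Rpe65, Crybb2, Crygs and Lim2 have no row. The globin gene Hbb-bs was at 19.8, 46.02 and 21.6 CPM and Hba-a1 at 18.01, 28.6 and 28.4 CPM. Globin genes are near-identical copies, so their single values are uncertain, and the red blood cell list summed to 50.97, 88.04 and 68.6 CPM.

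Cell cycle genes, like those of muscle, peaked in pool 2. All 18 were highest in pool 2 under each of the 4 scalings tried, against 27.8% of all genes at TMM scaling. Mki67, the Ki-67 proliferation antigen, was at 80.9, 175 and 62.5 CPM, Top2a, a topoisomerase of dividing cells, at 69.5, 153 and 67.8 CPM and Ccnb1, a cyclin of mitosis, at 30.1, 60.9 and 19.2 CPM. Pcna (77.1, 91.9 and 79.5 CPM) and Mcm6 (78.2, 107 and 81.5 CPM), which act in DNA replication, differed less between pools than these. The sum was 601, 1094 and 622 CPM.

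Immediate early genes, which rise with handling and stress of tissue, were at moderate levels. Fos was at 36.01, 19.7 and 20.05 CPM, Egr1 at 64.9, 31.5 and 48.1 CPM, Jun at 209, 211 and 231 CPM and the heat shock gene Hspa1b at 443, 420.2 and 829 CPM. Hspa1b and Klf4 (296, 295 and 533 CPM), an epithelial transcription factor, were highest in pool 3 and Fos in pool 1. Their sum was 2112, 1974 and 2777 CPM, with the members' highest values in pools 1, 2 and 3 in 7, 4 and 7 cases, which is near the 34.0%, 27.8% and 38.2% of all genes.

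The 4 Y-linked genes were highest in pool 1 and lowest in pool 3, each of which holds for 34.0% of all genes at 1 CPM or more. Ddx3y, a helicase gene, was at 94.5, 58.6 and 54.3 CPM, Eif2s3y, a translation factor gene, at 65.7, 45.6 and 25.4 CPM, Kdm5d, a demethylase gene, at 40.7, 32.00 and 19.5 CPM and Uty at 42.9, 22.6 and 9.20 CPM. Their sum differed 2.25-fold between pools 1 and 3, and all pools held reads of each gene. How many mice of a pool were male is not given, and the part of sex in any other difference between pools was not tested.

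**Figure D4:**
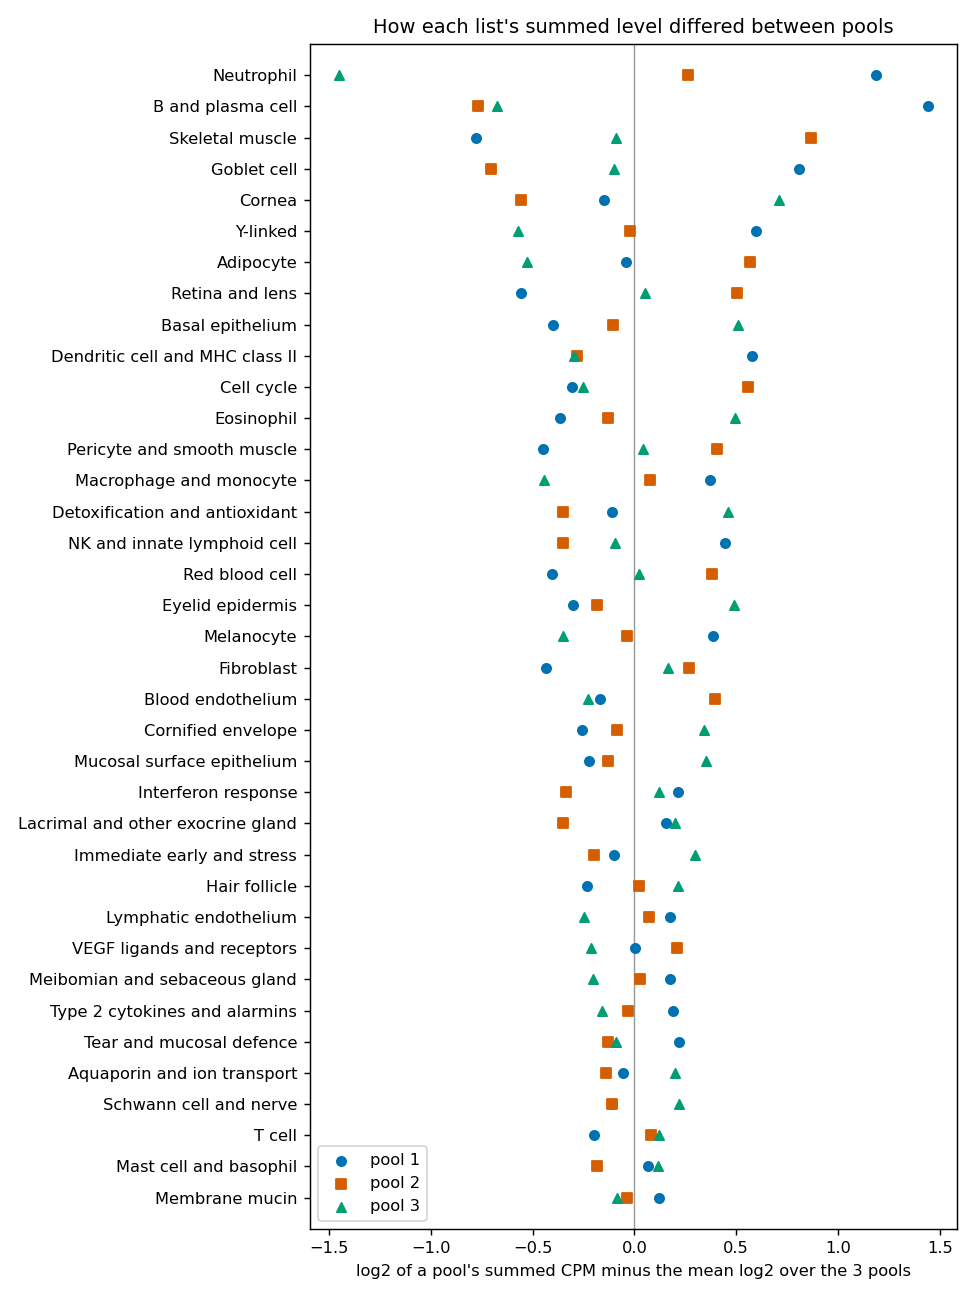
For each of 37 gene lists, the log2 of the summed CPM of each pool minus the mean log2 of the 3 pools, ordered by the range between pools. Neutrophil, B cell and goblet cell sums are highest in pool 1, skeletal muscle, adipocyte and cell cycle sums in pool 2, and basal and surface epithelium sums in pool 3.

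Over all genes the spread between the 3 pools was moderate. The common biological coefficient of variation, edgeR's estimate of the variation beyond counting, was 27.3% over 14208 genes. Among genes at 10 CPM or more the median CV was 17.5%, against a median of 3.32% from counting alone. The median CV was 39.8% between 1 and 3 CPM, 16.3% between 30 and 100 CPM and 21.9% from 1000 CPM on, where counting alone gives 0.521%. Depth therefore did not limit the precision of abundant genes, and below 3 CPM counting made up a larger share of the spread. Of 9989 genes 336 (3.36%) had a CV above 50% and 2238 (22.4%) one below 10%.

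**Figure D5:**
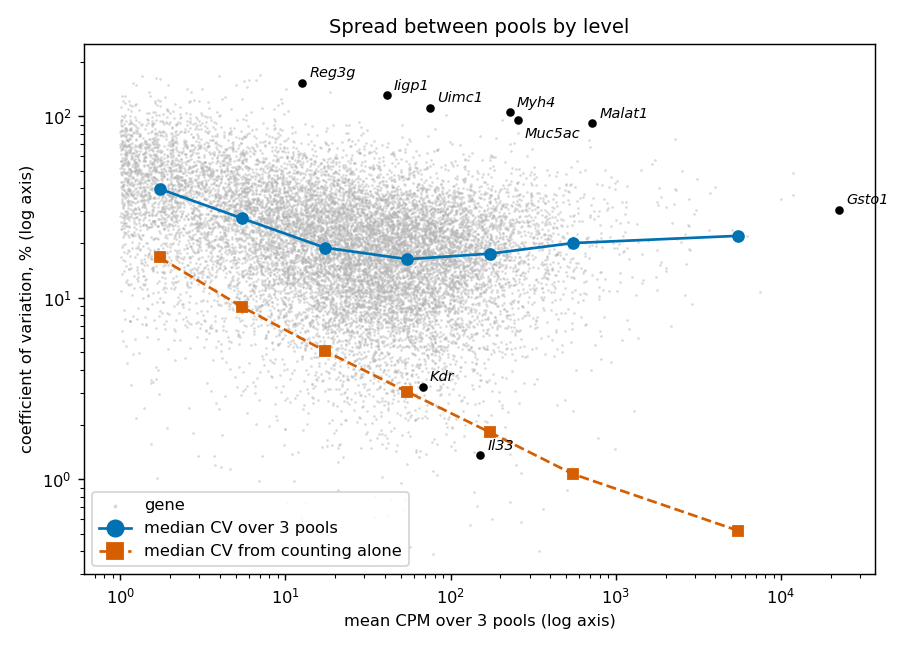
Coefficient of variation over the 3 pools against the mean CPM, both on log axes, for each gene at 1 CPM or more. The blue line joins the median per level and the dashed orange line the median that counting alone gives. The blue line falls to 16.3% between 30 and 100 CPM and then rises to 21.9% while counting error goes on falling, and Reg3g, Iigp1, Uimc1, Myh4, Muc5ac and Malat1 lie far above it.

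Pool 1 stood further from the others. Pearson's correlation of log2(CPM + 1) across 14187 genes, which are not independent replicates, was 0.964 between pools 1 and 2, 0.958 between 1 and 3 and 0.978 between 2 and 3. More than 2-fold differences were seen for 489, 751 and 288 of the 9989 genes in the same pairs. Pool 1 held 44.0% of the summed squared deviation, pool 2 22.6% and pool 3 33.5%. Without pool 1 the biological coefficient of variation was 23.1%. Gene length moved with the pools: the fifth of genes with the shortest exons had a median log2 deviation of -0.16 in pool 1 and 0.14 in pool 3, and the fifth with the longest had 0.05 and -0.04. The part of length, or of the mitochondrial share, in the differences between pools was not tested.

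The genes that varied most were a mixed group. Gbp4 and Iigp1, interferon-inducible GTPases, were at 47.5, 4.16 and 3.97 CPM and 103, 10.4 and 9.86 CPM, and F830016B08Rik at 26.5, 1.73 and 1.98 CPM, with pool 1 far above the others in each. Malat1, a long noncoding RNA of the nucleus, was at 1477, 430.4 and 255 CPM and mt-Nd6, the only mitochondrial protein gene on the light strand, at 1529.5, 317 and 409 CPM. Both were highest in pool 1. Wfdc17 was at 38.7, 14.9 and 4.68 CPM. Rps27rt (426, 134 and 55.1 CPM) is a near-copy of a ribosomal protein gene, so its value is uncertain.

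Pool 2 was alone in other genes. Krt16, a keratin that epithelium makes when it is injured or proliferates, was at 16.5, 200.3 and 65.4 CPM. Several list sums had this order of pools, among them those of muscle, fibroblasts, mural cells and the cell cycle. Asns, which encodes asparagine synthetase, was at 2.99, 22.97 and 5.07 CPM. Actn3 (5.35, 55.6 and 22.1 CPM), Mybpc2 (3.78, 47.2 and 22.1 CPM) and Asb2 (10.97, 45.9 and 14.4 CPM) are genes of muscle, the last 2 of them on no list, and Nos1 was at 3.99, 21.95 and 8.37 CPM. Pool 3 was alone in Uimc1, a gene of DNA repair, at 29.3, 24.6 and 172 CPM, and in Serf2 at 29.9, 52.9 and 159 CPM. Pfdn6 (6.25, 10.5 and 26.2 CPM), Ndufa12 (8.56, 13.5 and 32.4 CPM) and Klf16 (11.4, 16.6 and 38.5 CPM) were also highest there, together with Gm10282 (12.3, 15.5 and 45.2 CPM) and CAAA01147332.1 (16.3, 33.7 and 103 CPM). Of genes at 10 CPM or more, 66 were over 2-fold above both other pools in pool 1, 100 in pool 2 and 20 in pool 3.

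The genes with the smallest spread were of mixed function. Snx33, a sorting nexin, was at 59.8, 59.7 and 59.9 CPM, Cd164, a sialomucin, at 342, 343 and 339.97 CPM and Lamp1, the lysosomal membrane protein, at 506, 499.99 and 509 CPM. Cavin3 (77.7, 78.3 and 78.00 CPM), Rfk (56.6, 56.3 and 56.2 CPM), Ankfy1 (132, 131 and 131 CPM), Sh3glb1 (266, 264 and 264 CPM) and Eef1b2 (358, 363 and 359.9 CPM) also belonged to the 15 with the smallest CV. These CVs, 0.169% for Snx33 and 0.875% for Lamp1, are below what counting alone gives on average (2.83% and 0.974%), as they were for 337 of the 9989 genes, so they show no more than that the spread was within counting error. They also depend on the scaling: without a scaling factor the median gene moved by 0.08, 0.04 and -0.12 on the log2 scale in the 3 pools.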

How the data were processed

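Messenger RNA libraries were made from 1 µg of RNA extracted with the RNeasy Plus kit, and their strand is not stated. The authors deposited unnormalized counts per gene symbol. The authors used HISAT2, Bowtie2 and DESeq2 with the mm39 build, per the submitters' processing notes. For versions, the counting program and the annotation, each is not given in the sources used here. Groups came from the labels.

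The 3 unchallenged libraries were scaled with TMM factors in edgeR 4.0.16 (R 4.3.3). Variation was estimated with an intercept-only model after filterByExpr and tested on simulated data. Exon lengths came from GENCODE gene models of GRCm38, matched by symbol for 20069 genes and by synonym for 234. At most 0.216% of counts lay in genes with no length. No group comparison was made and no p-value computed. The 37 gene lists (525 distinct symbols, 481 with a row) and the libraries were chosen with earlier results of these data known. Named genes were the 30 most abundant by CPM and 20 by TPM outside mitochondrial and ribosomal protein genes, up to 4 per list with members at 0, the 15 with largest CV (at least 10 CPM) and smallest CV (at least 50 CPM), 8 per pool with the largest ratio to the mean of the other pools, Flt4 and Prox1. Further list members are named for their role and were chosen after their values were seen. A few list members are not reported here. Alternatives were other scalings, thresholds, lengths and leaving out each pool. Pairs of pools differed far beyond sampling noise (mean chi-square per gene 107.9 to 163.1), so none was a copy.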

Additional observations from a re-analysis of the deposited data

How the results depend on the processing

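For 42 results, 250 alternative values were computed, and 247 stayed within the spread between pools, or within 1.5 times for counts. Among them were all 222 values of list sums under other scalings and without each pool. Leaving out 1 of 3 pools cannot move a mean by more than the SD of the 3. Those values of sums and shares were therefore certain to stay, and they say nothing on robustness. The B and plasma cell sum, for example, fell from 41.4 to 19.2 CPM without pool 1 and was still counted as within the spread. Leaving mitochondrial genes out of the total, the 50 most abundant genes held 16.01% ± 1.63 of the counts in place of 17.3% ± 0.711 (SD, n = 3). The biological coefficient of variation was 32.9% without a filter on low counts, and 23.1% to 31.1% when 1 pool was left out. With other scalings the highest pool changed for 4 lists (hair follicle, lacrimal, T cell, mast cell) and the lowest for 5 (Schwann cell, dendritic cell, B cell, tear defence, cell cycle). With a length per kilobase of median transcript, chosen after seeing the data, 21 of the 30 most abundant genes remained. No paired analysis was possible because no groups were compared and no result comes from a test. The number of pools limited the precision more than depth did, also between 1 and 3 CPM, where the median CV was 39.8% and counting alone gives 16.7%.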

Other observations

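Beyond the lists, some genes that varied between the pools share known functions. They were chosen after their values were seen, so the choice itself sets how alike they look. Several genes of the circadian clock and its output were lowest in pool 2: Dbp was at 82.4, 41.9 and 182 CPM, Per2 at 135, 27.7 and 83.9 CPM, Per3 at 202, 47.3 and 93.4 CPM, Tef at 348, 121 and 357 CPM and Hlf at 259, 137 and 255 CPM. Arntl, which encodes the clock activator BMAL1, ran the opposite way at 1.94, 23.01 and 3.36 CPM, as did its relative Npas2 at 14.1, 30.1 and 18.8 CPM. Nr1d1, a repressor of Arntl, was lowest in pool 1, at 132, 194 and 185 CPM.

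Interferon-inducible GTPases besides Gbp4 and Iigp1 were also highest in pool 1, with Irgm2 at 86.7, 32.5 and 29.03 CPM, Igtp at 44.6, 9.62 and 15.6 CPM, Tgtp1 at 10.6, 0.510 and 1.82 CPM and Gbp8 at 6.67, 0.432 and 0.496 CPM. Tgtp1 has a near-identical copy, so its value is uncertain. Ifng, the cytokine known to induce such genes, had 0 counts in pools 1 and 3 and was at 0.0785 CPM in pool 2, under the floor of 3 counts. Neat1, another nuclear noncoding RNA, ran in the same order as Malat1, at 1093, 760.01 and 442 CPM.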
